A study of Mus musculus with 46 samples.

Results

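Agrp and Npy encode the peptides by which AgRP neurons of the arcuate nucleus of the hypothalamus, a small population that is active in hunger, drive feeding. Agouti-related peptide, the product of Agrp, is a secreted inverse agonist of the melanocortin receptors and so opposes the satiety signal carried by POMC-derived peptides, while neuropeptide Y, the product of Npy, acts on its own family of G protein-coupled receptors. Both genes are known to be raised by fasting and to be restrained by leptin, the hormone of fat stores. The values below are the rows of these 2 genes among 31854 genes in 17 RNA libraries, together with every accessible chromatin region whose centre lay within 100 kb of either start site, which came to 34 regions at Agrp and 28 at Npy of 123721 in fed, fasted and leptin-treated AgRP nuclei, and to 15 at Agrp and 11 at Npy of 67472 in sorted AgRP-positive and AgRP-negative nuclei.

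The mice carried NuTRAP, a Cre-dependent cassette for a GFP-tagged L10a ribosomal protein and an mCherry-tagged RANGAP on the nuclear envelope, crossed to AgRP-IRES-Cre or POMC-IRES-Cre, so that tagged ribosomes could be pulled down (TRAP) and tagged nuclei sorted. All were males of 6 to 11 weeks on a C57BL/6J background. They were fed ad libitum and given PBS, fasted overnight and given PBS, or fasted overnight and given leptin, so that the leptin group had also been fasted. The AgRP line had 3 fed, 4 fasted and 4 leptin-treated RNA libraries, numbered 1, 3 and 4 or 1 to 4, and the POMC line had 2 of each, numbered 1 and 2. Each RNA library held 4 pooled arcuate nuclei. Chromatin accessibility was measured by ATAC-seq, with 2 libraries per state, and in AgRP-positive and AgRP-negative nuclei of fed, untreated AgRP-line mice, again with 2 libraries each. CUT&RUN for IRF3 used another model, in which AgRP neurons of fed males overexpressed IRF3-2D, a constitutively active form. In the AgRP line Cre is expressed from the Agrp gene itself, which the POMC line leaves unmodified, and all animals of both lines carried the NuTRAP cassette.

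Totals ran from 25581041 to 54511107 counts per RNA library, from 8263234 to 17190963 per ATAC library of the 3 states and from 8685497 to 11177208 per sorted ATAC library. The labelled lines held their markers: a list of 8 AgRP neuron genes that includes both members summed to 2379 to 9116 CPM (counts scaled to a common library size) in AgRP libraries and 393 to 765 in POMC libraries, and 5 POMC neuron genes summed to 137 to 190 and 1635 to 3009. The libraries that stood apart were 6, number 4 of the AgRP line and number 2 of the POMC line in all 3 states. In those libraries the astrocyte glutamate transporter Slc1a2 had 20620 to 27235 CPM against 2381 to 6034 elsewhere. A list of 6 astrocyte genes that includes Slc1a2, all detected in every library, summed to 21474 to 28161 CPM against 2782 to 6643. Slc1a2 made up most of that sum in every library, so the sum is not a separate sign. The results that moved without these libraries are given both ways.

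Agrp lies at chr8:105566698-105568298 (mm10, minus strand), with annotated alternative starts 11.5 kb and 69.1 kb upstream, and Npy at chr6:49822710-49829507 (plus strand). All distances are from these starts, in the direction of transcription. The 250 bases immediately before the Npy start (chr6:49822460-49822709, plus strand, RefSeq on GRCm38.p6) are shown because this stretch lies in the accessible region over the start. Capitals mark a GC box (GGGCGG) at position -95 from the start and a TATA-like ATAAAA at position -20. Searched on both strands, GGGCGG was found in 10756 and ATAAAA in 5576 of the same 250-base stretches of 32851 genes.
Npy upstream: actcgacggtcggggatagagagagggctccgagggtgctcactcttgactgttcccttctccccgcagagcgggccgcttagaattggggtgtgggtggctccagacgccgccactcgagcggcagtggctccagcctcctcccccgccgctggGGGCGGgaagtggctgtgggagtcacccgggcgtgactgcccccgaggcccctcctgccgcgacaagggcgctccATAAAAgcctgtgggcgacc

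In the AgRP line both messages were abundant, and higher in every fasted than in any fed library. Agrp had 313, 514 and 341 CPM in fed libraries 1, 3 and 4, then 725, 1494, 2001 and 1232 CPM in fasted libraries 1 to 4, and 492, 1365, 2164 and 1008 CPM in leptin-treated libraries 1 to 4. Npy had 369, 803 and 660 CPM in the fed libraries, 868, 1922, 2992 and 2202 in the fasted and 539, 1881, 3148 and 1773 in the leptin-treated. The lowest fasted library was number 1 for both genes. Leptin-treated libraries overlapped both groups: leptin-treated number 1 lay below fed number 3 for each gene. Within each number the fasted library was higher than its fed partner by 1.21, 1.96 and 1.85 on the log2 scale for Agrp and by 1.24, 1.90 and 1.74 for Npy.

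**Figure D1:**
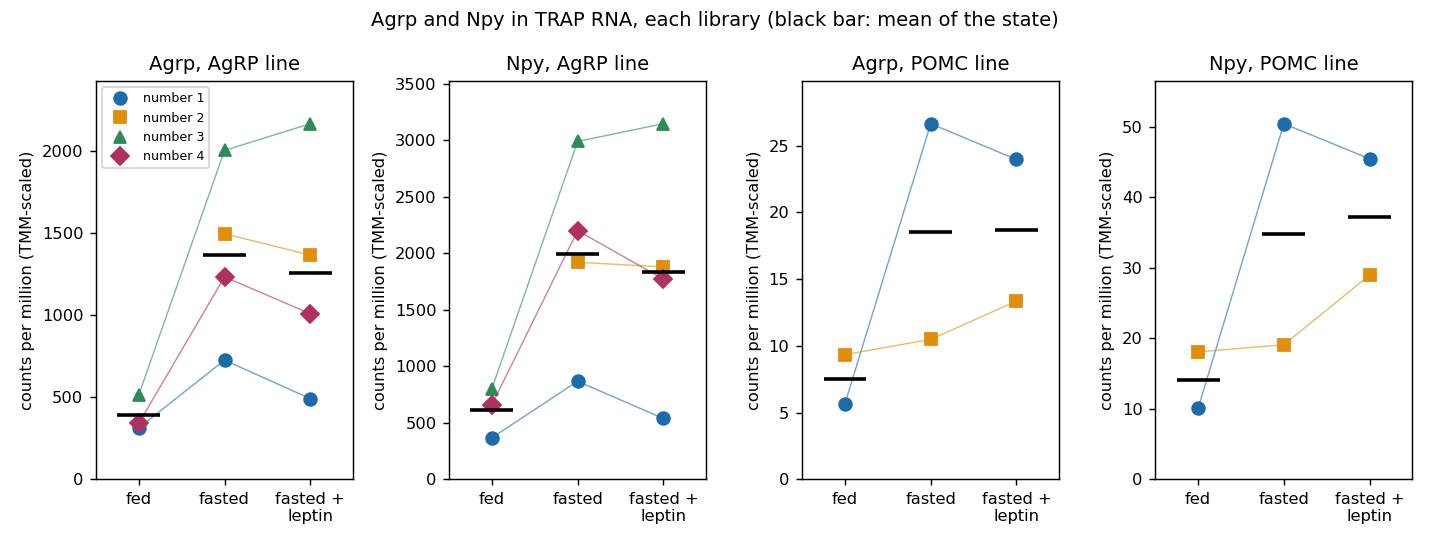
CPM (TMM-scaled, linear axis from 0) of Agrp and Npy in each TRAP RNA library of the AgRP line (left pair of panels) and the POMC line (right pair), by state. Points are libraries, lines join libraries of the same number and black bars are state means. In the AgRP line all 4 fasted libraries lie above all 3 fed libraries for both genes, and the POMC panels cover a far lower range, up to 26.6 CPM for Agrp and 50.4 CPM for Npy.

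Fasted libraries averaged 3.501 times the fed level for Agrp and 3.27 times for Npy. By edgeR's quasi-likelihood test without pairing the log2 fold changes were 1.81 (SE 0.47, adjusted p = 0.0523) for Agrp and 1.71 (SE 0.56, adjusted p = 0.113) for Npy, so neither passed a false discovery rate of 0.05, whereas 521 of 13401 tested genes (3.89%) were called at that rate with an absolute log2 fold change over 0.5. Libraries of the same number deviated together across states, and with the number as a block the changes were 1.64 for Agrp (SE 0.18, adjusted p = 8.7e-05) and 1.57 for Npy (SE 0.18, adjusted p = 0.000115), both called, where 6.94% of genes were. DESeq2 without the block also called both, at adjusted p of 0.00049 and 0.0226. The 6 other AgRP neuron markers also summed higher, to 1391 to 1888 CPM in fed, 1993 to 2560 in fasted and 2023 to 3804 in leptin-treated libraries, with no overlap of fed and fasted, and their part in the result was not tested. Less RNA per cell and fewer tagged cells in a pool cannot be told apart in these bulk libraries.

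At the single time sampled after the injection, leptin given to fasted mice was followed by little movement of either message. By number, the leptin-treated library differed from the fasted one by -0.56, -0.13, 0.11 and -0.29 on the log2 scale for Agrp (numbers 1 to 4) and by -0.69, -0.03, 0.07 and -0.31 for Npy. Numbers 1, 2 and 4 were thus lower and number 3 higher for both genes. The fitted change was -0.12 for each gene (SE 0.41 and 0.49, adjusted p = 1.0 for both by edgeR, background 1.83% of genes called). With the block it was -0.20 for Agrp (adjusted p = 0.56) and -0.22 for Npy (adjusted p = 0.517), with 2.91% of genes called. Leaving out fasted number 3 or leptin-treated number 1 turned the unblocked sign, to 0.14 and 0.15 for Agrp and to 0.15 and 0.18 for Npy.

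Against fed mice, the leptin-treated fasted mice still had 3.23 times the Agrp level and 3.01 times the Npy level. The log2 fold change of Agrp was 1.69 (SE 0.47, adjusted p = 0.0495, called by edgeR, background 5.48%), and that of Npy 1.59 (SE 0.56, adjusted p = 0.108). With the block these were 1.44 (adjusted p = 0.000187) and 1.35 (adjusted p = 0.000296), both called, with 8.57% of genes called. The unblocked Agrp call was lost when fed number 1, 3 or 4 or leptin-treated number 2, 3 or 4 was left out (adjusted p from 0.0509 to 0.172), and without number 4 in every state (adjusted p = 0.102). This comparison shares its fed libraries with the fasting comparison and its leptin-treated libraries with the leptin comparison, so these comparisons are not independent.

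Levels between the 2 genes are comparable only per length. Per kilobase of exon (1401 bases for Agrp, 564 for Npy), mean Npy levels in the AgRP line were 1082, 3539 and 3254 CPM per kb in fed, fasted and leptin-treated libraries, and mean Agrp levels 278, 973 and 897. Npy ranked 1 among 13401 genes per length in 10 of 11 AgRP libraries and 2 in fed number 4. Agrp ranked 40 to 90 in fed libraries, 3 to 9 in fasted and 2 to 21 in leptin-treated libraries. In the POMC line Npy ranked 429 to 3338 and Agrp 3191 to 8500 of 13412.

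The POMC line carried low but countable amounts of both messages, with raw counts of 271 to 946 for Agrp and 481 to 1791 for Npy. Agrp had 5.68 and 9.35 CPM in fed libraries 1 and 2, 26.6 and 10.49 in fasted, and 23.97 and 13.4 in leptin-treated libraries. Npy had 10.1 and 18.1, then 50.4 and 19.1, then 45.5 and 29.0 CPM. Fasted libraries lay above fed ones for both genes, but almost all of the distance came from number 1, whose fasted library was higher than its fed library by 2.23 (Agrp) and 2.32 (Npy) on the log2 scale, against 0.17 and 0.08 for number 2. The fitted log2 fold change was 1.31 for Agrp and 1.30 for Npy (SE 0.54 each, adjusted p = 1.0 for both by edgeR). No gene of 13412 was called in this comparison (0%), with 135 higher and 147 lower at an unadjusted p under 0.05 and 3 called by DESeq2.

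Leptin-treated POMC libraries differed from fasted ones by 0.01 for Agrp and 0.10 for Npy (SE 0.53 each), and from fed ones by 1.31 and 1.40 (SE 0.54 each), none of them called by edgeR, which called 0 of 13412 genes in both comparisons. At an unadjusted p under 0.05 there were 115 higher and 36 lower genes in the first and 155 higher and 127 lower in the second, and DESeq2 called 10 and 7. Number 2, the library with high Slc1a2 in each POMC state, had the lower fasted and leptin-treated values of each pair. The part of that in the POMC values was not tested.

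Scaled over all 17 libraries together, the order of mean Agrp levels was AgRP fasted 1334 ± 528 CPM (SD, n = 4), AgRP leptin-treated 1231 ± 695 (n = 4), AgRP fed 383.5 ± 106 (n = 3), POMC leptin-treated 19.4 ± 7.69 (n = 2), POMC fasted 19.1 ± 11.6 (n = 2) and POMC fed 7.78 ± 2.70 (n = 2). The order for Npy was AgRP fasted 1949 ± 862, AgRP leptin-treated 1794 ± 1049.5, AgRP fed 600.4 ± 214, POMC leptin-treated 38.7 ± 11.9, POMC fasted 35.8 ± 22.6 and POMC fed 14.6 ± 5.89 CPM. In both orders the fasted and leptin-treated groups of a line did not differ beyond their spread. The large step was between the lines.

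In a single model of both lines, the log2 difference of AgRP over POMC libraries was 5.62 (SE 0.72) fed, 6.12 (SE 0.73) fasted and 5.99 (SE 0.73) leptin-treated for Agrp, or 49.2, 69.6 and 63.5 times. For Npy it was 5.36 (SE 0.80), 5.76 (SE 0.81) and 5.53 (SE 0.80), or 41.1, 54.4 and 46.3 times. All 6 were called, with edgeR adjusted p from 8.7e-05 to 0.000999, where 1.7% of 13435 genes were called higher in the AgRP line in fed, 8% in fasted and 6.41% in leptin-treated mice. The 6 other AgRP neuron markers summed to 1391 to 3804 CPM in the AgRP line and to 363 to 695 in the POMC line.

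The fasting change in the AgRP line minus that in the POMC line was 0.50 for Agrp (SE 0.77, adjusted p = 0.977) and 0.40 for Npy (SE 0.86, adjusted p = 0.995), not called by edgeR (0.164% of genes called). Without the 6 libraries with high Slc1a2 the difference turned to -0.47 and -0.61. The leptin change in the AgRP line minus that in the POMC line was -0.13 and -0.23 (adjusted p = 1.0 for both, 0.0819% of genes called), turning to 0.08 and 0.09 without those libraries. With standard errors of this size the contrasts do not show that the lines responded alike.

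The ratio of Agrp to Npy counts, which needs no scaling between libraries, followed the library number more than the state. In the AgRP line it was 0.835 to 0.912 in number 1, 0.726 to 0.777 in number 2, 0.640 to 0.687 in number 3 and 0.517 to 0.569 in number 4. These ranges did not overlap, while the 3 states overlapped. In the POMC line the ratio was 0.527 to 0.563 in number 1 and 0.461 to 0.549 in number 2. Per length this is 2.72 to 4.80 Npy for each Agrp in the AgRP line and 4.41 to 5.39 in the POMC line.

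**Figure D2:**
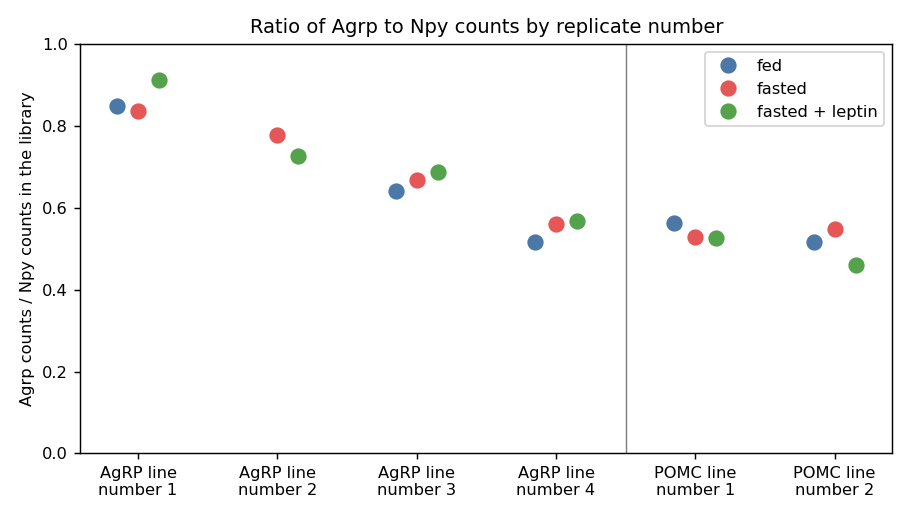
Agrp counts divided by Npy counts in each RNA library (linear axis from 0), grouped by line and library number, with a colour for each state. The numbers of the AgRP line occupy separate bands from 0.912 down to 0.517 irrespective of state, and the POMC libraries lie between 0.461 and 0.563.

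On the log2 scale the ratio was higher in the AgRP line than in the POMC line by 0.40 (exact permutation test over 17 libraries, two-sided p = 0.00242, adjusted p = 0.0097 over 4 comparisons, smallest possible p = 0.000162). Libraries of a number deviated together although each was its own pool, so that p treats libraries that are not independent as separate. Fasted against fed AgRP libraries differed by 0.10 (exact permutation p = 0.686, adjusted p = 0.914), leptin-treated against fasted by 0.02 (exact p = 0.914, adjusted p = 0.914) and leptin-treated against fed by 0.12 (exact p = 0.629, adjusted p = 0.914), where the smallest possible p was 0.0571, 0.0286 and 0.0571. These state tests ignored the library number, which the ratio followed, so their p-values carry the spread between numbers. Fed libraries also lack number 2. In number 1 the ratio was 0.850 fed, 0.835 fasted and 0.912 after leptin. Numbers 3 and 4 gave 0.640 and 0.517 fed, 0.669 and 0.559 fasted, and 0.687 and 0.569 after leptin. Within each of these numbers leptin-treated lay above fed, and fasted did so except in number 1, which was not tested. Number 4, with the lowest ratio of the AgRP line, is also the number with Slc1a2 at 20620 to 27235 CPM. The part of that in its ratio was not tested.

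Across the 11 AgRP libraries the log2 levels of Agrp and Npy followed each other with r = 0.968, and r = 0.950 after the state means were removed. In the 6 POMC libraries r was 0.994. The points share states and library numbers, so these are descriptions. Among 13400 other genes the 5 closest to Agrp were Ptprn (r = 0.987), a membrane protein of dense-core vesicles, Scg2 (r = 0.983), a secretogranin, Psmb3 (r = 0.980), a proteasome subunit, Dcun1d5 (r = 0.969) and the ubiquitin ligase Trim41 (r = 0.968), with Npy in place 6. The closest to Npy were Rpl32 (r = 0.974), a ribosomal protein, Tmsb4x (r = 0.973), an actin-binding peptide, Agrp itself, the histone chaperone Hira (r = 0.964) and the kinase Csnk1e (r = 0.958). In all, 100 genes had r over 0.9 with Agrp and 81 with Npy. In the POMC libraries the named genes other than Agrp and Npy had r from -0.33 to 0.39 with the member they were listed for.

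Of 15 other peptide precursors measured in AgRP libraries, 5 rose in fasting and none fell (median log2 fold change 0.24, against 0.02 over all genes, of which 2.82% were called higher and 1.07% lower). These were neurotensin (Nts, 2.42), Vgf (2.22), neuromedin B (Nmb, 2.09), nucleobindin 2 (Nucb2, 0.80) and prodynorphin (Pdyn, 0.67), and with the block 7 rose and 1, the growth hormone-releasing hormone gene Ghrh, fell, where 4.4% of all genes were called higher and 2.54% lower. Of 14 genes of peptide processing and secretion, the prohormone convertase gene Pcsk1 rose (0.74), with a list median of 0.27, and with the block Scg2 rose too. For the receptors on which the members' products act, 1 of 7 tested fell, Npy2r (-1.11), a receptor of neuropeptide Y known as an autoreceptor. The melanocortin receptor genes gave -0.37 for Mc3r and -0.06 for Mc4r, neither called.

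A list of 14 factors held known or possible regulators of Agrp or Npy transcription. Of these, the immediate early genes Fos (1.35) and Nr4a1 (1.60) rose in fasting and none fell (background 2.82% higher and 1.07% lower). With the block Foxo1, an insulin-restrained factor, and Otp, a homeobox factor of AgRP neurons, were called as well, from 0.48 and 0.53 without it, where 6.94% of all genes were called. The others of the list included Stat3 (0.00), Bsx (-0.03) and Irf3 (-0.15), not called. None of 7 hormone receptors was called by edgeR without the block (2 higher at an unadjusted p under 0.05 and 2 by DESeq2), and with it the leptin receptor Lepr (1.19 unblocked) and the ghrelin receptor Ghsr (0.66 unblocked) were called higher and Glp1r lower (-0.75 unblocked). None of 5 genes of GABA transmission, the fast transmitter of these neurons, was called in fasting by edgeR, DESeq2 or at an unadjusted p under 0.05, with a median of -0.09.

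In leptin-treated against fasted AgRP libraries, where 1.83% of genes were called, Mc3r rose (0.76) and Npy1r (-0.51) and Npy5r (-0.60) fell of 7 receptors, and of the 14 factors Atf3 rose (2.38) and Nr4a1 fell (-1.87). No peptide precursor was called by edgeR (1 higher and 2 lower at an unadjusted p under 0.05, 1 by DESeq2), and with the block, where 2.91% of genes were called, Nmb and Pomc were.

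Chromatin at the 2 loci differed in how it moved with fasting. Of 23 tested regions within 100 kb of Npy (28 in all, 5 under the filter of a mean of 1 CPM), 12 became more accessible in fasted than in fed AgRP nuclei and none less, or 52.2%, where 18.1% of 102237 tested regions were called higher and 8.88% lower by edgeR. The median log2 fold change near Npy was 1.21, against -0.04 over all regions. Both the count and this median include regions with fed means under 1 CPM, which passed the filter only through other states. Of 31 tested regions near Agrp (34 in all), 6 were higher and 1 lower, or 19.4% higher, close to the background, with a median of 0.02. Leaving out 1 fed or fasted library kept a single library in that state. Each such fit called fewer higher regions at both genes and no Npy region lower. At an unadjusted p under 0.05 the lower counts were 0 for Npy and 1 for Agrp, and DESeq2 called 10 Npy regions higher and none lower. The shares of all regions in these alternative settings are not given, so those counts cannot be set against 18.1%.

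**Figure D3:**
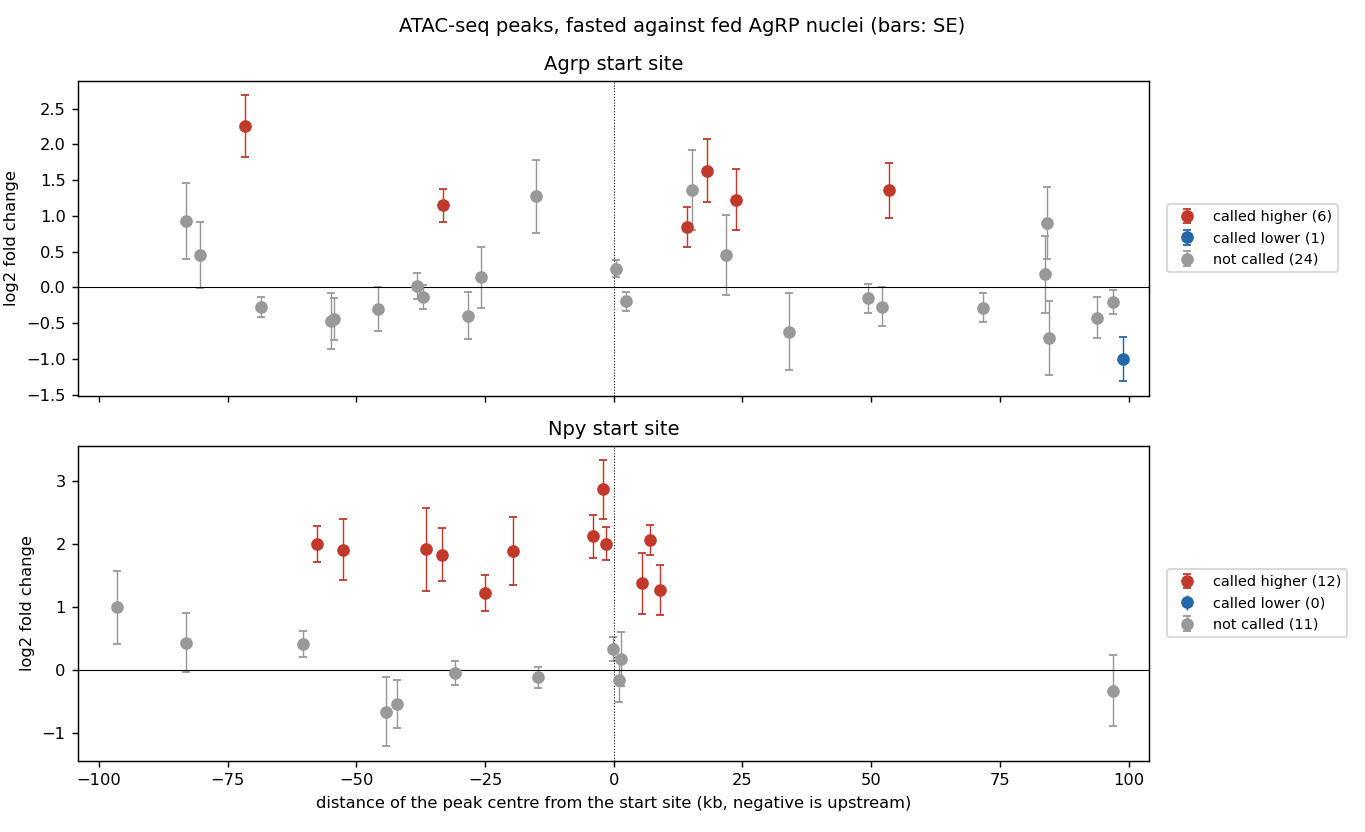
Log2 fold change of ATAC-seq counts, fasted against fed AgRP nuclei, of each tested region within 100 kb of the Agrp start (top) and the Npy start (bottom), against distance of its centre from the start in kb. Points are regions with bars of 1 SE, coloured by call. Called regions near Npy lie between 57.70 kb upstream and 8.91 kb downstream and all are higher, and the regions over both start sites are not called.

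The region 3.96 kb upstream went from 1.86 and 5.26 CPM fed to 15.6 and 18.7 fasted, with 17.1 and 15.6 after leptin (log2 fold change fasted against fed 2.12, SE 0.34). The widest called region, 2964 bases centred 7.05 kb downstream, covers the last exon of Npy and the sequence beyond it. It had 21.1 and 15.3 CPM fed, 87.7 and 60.1 fasted and 64.1 and 38.7 after leptin (2.06, SE 0.24, edgeR adjusted p = 2.1e-05). In these regions the fasted and fed libraries were far apart, and 11 of the 12 called Npy regions had both fasted libraries above both fed ones. The calls rest on the same libraries, so this separation was partly built in. A region 1.41 kb upstream had 5.83 and 7.50 CPM fed, 30.8 and 23.9 fasted and 32.7 and 27.3 after leptin (2.00, SE 0.27).

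The region over the Npy start itself was already open in fed mice and was not called, at 34.0 and 36.3 CPM fed, 47.1 and 41.7 fasted and 44.6 and 31.2 after leptin (0.33, SE 0.19, edgeR adjusted p = 0.194). The region over the Agrp start was not called either, at 116 and 103 CPM fed, 142 and 120 fasted and 133 and 110 after leptin (0.26, SE 0.12, edgeR adjusted p = 0.104). Fasted libraries lay above fed ones at both starts, by a small step. The nearest other regions gave -0.16 at 1.02 kb downstream of the Npy start, -0.20 at 2.35 kb downstream of the Agrp start, at the start of the neighbouring gene Atp6v0d1, and 1.27 at 15.14 kb upstream of Agrp, none called.

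Near Agrp the largest change was 71.70 kb upstream, in an intron of Ctcf, with 0.993 and 1.87 CPM fed, 7.78 and 7.03 fasted and 7.70 and 4.97 after leptin (2.26, SE 0.43, edgeR adjusted p = 0.0008). Next were 2 weak regions downstream, in an intron of Atp6v0d1 at 18.10 kb (1.64, from 1.74 and 1.153 to 4.65 and 3.92 CPM) and at 53.43 kb in no gene (1.36). A stronger region lay 33.25 kb upstream, in the intron of the longest annotated Agrp transcript, at 10.9 and 15.2 CPM fed, 30.1 and 29.4 fasted and 30.7 and 26.3 after leptin (1.149, SE 0.23). All 6 had both fasted libraries above both fed ones, which their calls in the same libraries partly built in. The single lower region was in an exon of Tppp3, 98.88 kb downstream (-1.003), and Tppp3 RNA was also lower in fasted AgRP libraries (-0.68, adjusted p = 0.0149 by edgeR).

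Leptin-treated and fasted nuclei were then compared. Against fasting, none of 23 Npy and 31 Agrp regions was called in either direction by edgeR or DESeq2 without a replicate block, where 3.08% of all regions were. At an unadjusted p under 0.05 there were 1 higher and 2 lower at Npy and none at Agrp, with the share of all regions at that setting not given. Against fed mice, 9 Npy regions were higher (background 23.3%, median 0.99) and none lower, and 5 Agrp regions were higher and 1 lower (background 13.4% lower). The fasted and fed libraries are shared with the comparisons above.

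**Figure D4:**
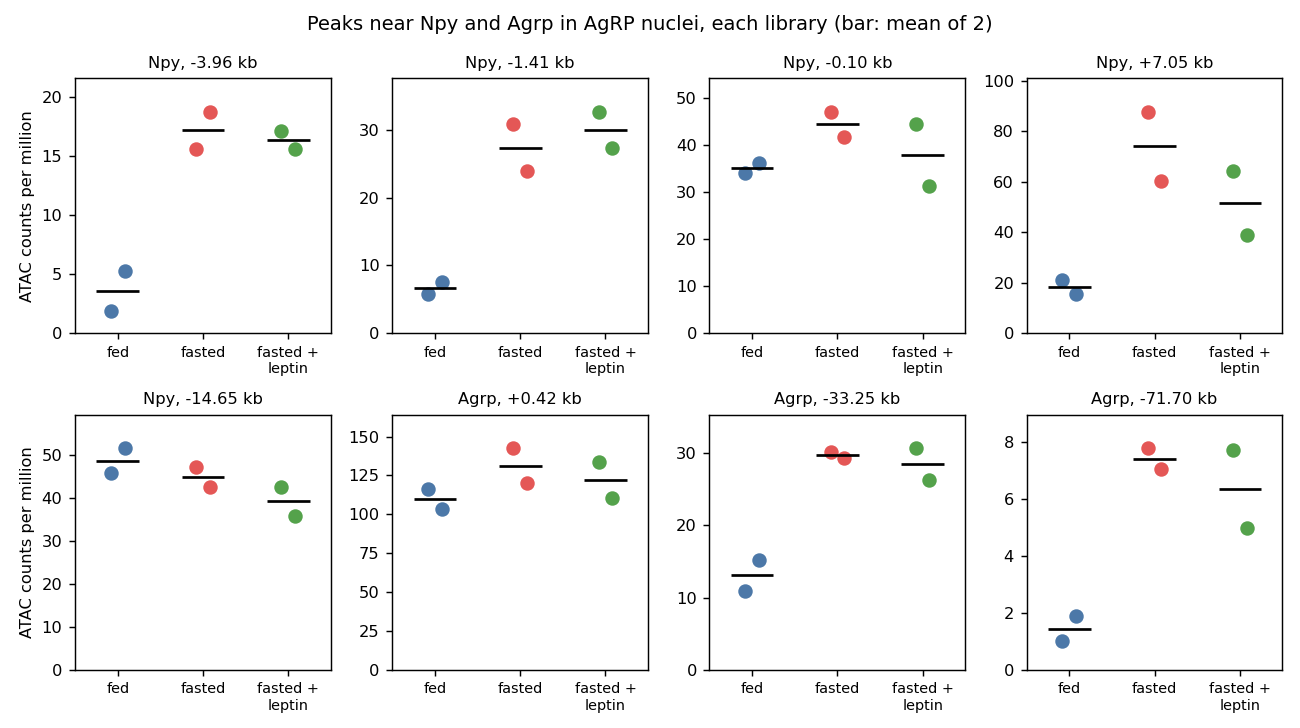
ATAC-seq CPM (linear axes from 0, scaled separately) in each AgRP nuclei library by state for 8 regions, named by gene and distance of the centre from the start in kb. Points are libraries and bars means of 2. At 3.96 kb upstream of Npy both fasted libraries, 15.6 and 18.7 CPM, and both leptin-treated ones lie above the fed 1.86 and 5.26, whereas at 14.65 kb upstream the groups lie close together.

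Stretches of 300 bases centred on 3 called Npy regions and 2 called Agrp regions are given, with flanking sequence where a region is narrower, plus strand of GRCm38, because they show what the regions that opened in fasting do and do not share. Capitals mark matches, on either strand, to 7 short motifs searched, of which AP-1 (TGANTCA), the site of Fos and Jun dimers, and homeobox (TAATTA) occur here. The stretches are chr6:49818599-49818898, chr6:49821152-49821451, chr6:49829615-49829914, chr8:105639845-105640144 and chr8:105601396-105601695, in this order.
Npy 3.96 kb upstream: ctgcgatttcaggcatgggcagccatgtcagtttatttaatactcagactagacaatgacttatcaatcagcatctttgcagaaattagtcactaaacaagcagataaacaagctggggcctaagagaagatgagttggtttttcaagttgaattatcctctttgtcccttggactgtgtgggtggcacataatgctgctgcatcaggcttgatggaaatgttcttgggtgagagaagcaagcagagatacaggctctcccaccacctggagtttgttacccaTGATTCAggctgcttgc
Npy 1.41 kb upstream: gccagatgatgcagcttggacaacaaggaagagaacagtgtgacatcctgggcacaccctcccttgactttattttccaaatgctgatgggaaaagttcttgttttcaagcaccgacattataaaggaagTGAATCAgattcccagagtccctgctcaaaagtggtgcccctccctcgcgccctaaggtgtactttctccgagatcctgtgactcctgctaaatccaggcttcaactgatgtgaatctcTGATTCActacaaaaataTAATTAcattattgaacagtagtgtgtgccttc
Npy 7.05 kb downstream: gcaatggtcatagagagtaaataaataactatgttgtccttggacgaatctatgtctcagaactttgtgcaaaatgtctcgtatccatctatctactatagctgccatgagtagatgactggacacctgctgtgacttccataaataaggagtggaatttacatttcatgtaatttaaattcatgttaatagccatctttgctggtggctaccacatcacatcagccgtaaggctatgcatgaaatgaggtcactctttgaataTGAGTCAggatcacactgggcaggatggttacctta
Agrp 71.70 kb upstream: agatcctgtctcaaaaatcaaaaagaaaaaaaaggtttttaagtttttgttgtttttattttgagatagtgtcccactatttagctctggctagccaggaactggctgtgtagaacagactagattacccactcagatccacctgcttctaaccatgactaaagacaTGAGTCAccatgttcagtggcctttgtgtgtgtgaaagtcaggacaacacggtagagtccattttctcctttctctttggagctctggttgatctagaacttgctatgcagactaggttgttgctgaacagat
Agrp 33.25 kb upstream: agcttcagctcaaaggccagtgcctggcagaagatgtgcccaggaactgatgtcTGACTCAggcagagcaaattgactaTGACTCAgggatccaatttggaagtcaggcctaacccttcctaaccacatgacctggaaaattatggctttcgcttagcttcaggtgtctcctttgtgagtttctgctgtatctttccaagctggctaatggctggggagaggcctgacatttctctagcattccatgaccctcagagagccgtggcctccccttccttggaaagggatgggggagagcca

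An AP-1 match lay in the 300 bases centred on 7 of the 12 Npy regions called higher in fasting and on 3 of the 6 Agrp regions, against 3 of 11 and 3 of 24 regions not called. Over windows of the same length centred on all regions the share was 32.2% of 102204, and 71.1% of the 18518 called higher in fasting, so the members held it no more often than other opened regions. The 1.41 kb region held 2 AP-1 matches and a TAATTA, and the Agrp region 33.25 kb upstream 2 AP-1 matches. Matches to the cyclic AMP element, an IRF motif and the glucocorticoid response element were found in none of the 18 regions called higher, with shares of 0.764%, 4.12% and 0.0626% of all regions. The STAT motif (TTCNNNGAA, 12.4% of all regions) lay in 2 of the 12 Npy regions and 1 of the 6 Agrp regions, and the FOXO motif (TGTTTAC, 4.55%) in none of those 18 but in 3 of 11 Npy regions not called.

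Sorted nuclei of fed mice gave a second contrast, AgRP-positive against AgRP-negative, in libraries not used above. Near Npy 9 of 11 tested regions were more accessible in AgRP-positive nuclei and none less (background 23.9% higher and 15.6% lower of 66560 regions, edgeR), with a median log2 fold change of 2.90 against 0.00 over all regions. At an unadjusted p under 0.05 10 were higher and none lower, and DESeq2 called 8 higher and none lower. Shares of all regions in these alternative settings are not given. Near Agrp 1 of 15 was higher, the region over the start, and 4 were lower.

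**Figure D5:**
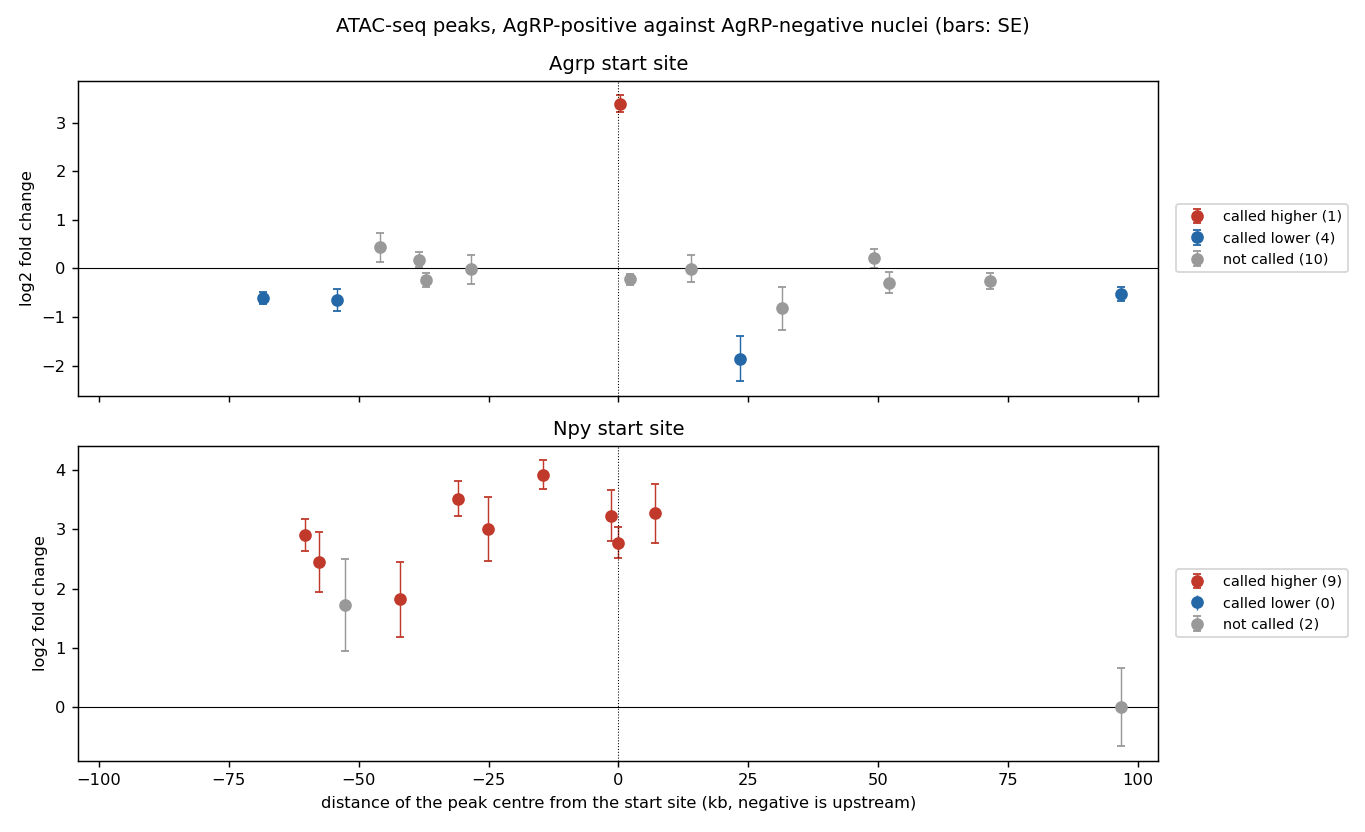
Log2 fold change of ATAC-seq counts, AgRP-positive against AgRP-negative nuclei of fed mice, of each tested region within 100 kb of the Agrp start (top) and the Npy start (bottom), against distance of its centre from the start in kb, with bars of 1 SE and colours by call. At Agrp the region over the start stands alone at 3.39, and at Npy 9 regions from 60.33 kb upstream to 7.11 kb downstream lie between 1.82 and 3.92.

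The Agrp start had 7.02 and 8.88 CPM in AgRP-negative libraries and 83.4 and 83.5 in AgRP-positive ones (3.39, SE 0.17, edgeR adjusted p = 5.9e-78). The start of the next gene, Atp6v0d1, whose product is a subunit of the proton pump of vesicles, was open in both populations, with 86.4 and 92.6 against 78.2 and 75.0 CPM (-0.22, not called). The 4 lower Agrp regions were at 23.40 kb downstream (-1.86), 54.20 kb upstream (-0.65), 68.47 kb upstream, over the start of Ctcf (-0.61), and 96.89 kb downstream, over the start of Tppp3 (-0.53). The region over the Ctcf start also covers the annotated alternative Agrp start 69.1 kb upstream. The Npy start had 4.06 and 2.96 CPM in AgRP-negative and 25.8 and 22.2 in AgRP-positive libraries (2.77, SE 0.26).

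The largest Npy difference was 14.57 kb upstream, at 1.48 and 4.02 CPM in AgRP-negative and 40.0 and 44.2 in AgRP-positive libraries (3.92, SE 0.24). Other strong ones were 30.84 kb upstream (1.72 and 2.49 against 21.1 and 27.4 CPM, 3.52, SE 0.29) and 60.33 kb upstream (2.22 and 3.91 against 19.9 and 26.2 CPM, 2.90). AgRP-positive and AgRP-negative libraries did not overlap at any of these, which were picked for their fold in the same libraries. The 300 bases centred on the first (chr6:49807988-49808287, plus strand, GRCm38) are given because this region was the most selective of the locus and yet was not called in fasting. Capitals mark a match to the FOXO motif, found in 4.18% of 66480 sorted-nuclei regions and 6.12% of those higher in AgRP-positive nuclei.
Npy 14.57 kb upstream: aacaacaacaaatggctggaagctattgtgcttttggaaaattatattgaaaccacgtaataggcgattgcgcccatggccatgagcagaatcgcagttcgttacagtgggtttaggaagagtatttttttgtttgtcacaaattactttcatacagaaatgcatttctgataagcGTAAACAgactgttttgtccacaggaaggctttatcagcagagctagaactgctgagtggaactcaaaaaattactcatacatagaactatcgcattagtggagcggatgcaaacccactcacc

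Setting the 2 experiments side by side divided the Npy regions. All 11 sorted-nuclei regions overlapped a tested region of the 3 states by at least 1 base. Of the 9 higher in AgRP-positive nuclei, 4 overlapped regions that opened in fasting (57.69, 25.03 and 1.35 kb upstream and 7.11 kb downstream) and 5 overlapped regions not called in fasting (60.33, 42.12, 30.84 and 14.57 kb upstream and the start). The regions not called in fasting included the 4 with the highest fed levels, with fed means over 20 CPM and up to 48.7. The 12 that opened had fed means of 0.387 to 18.2 CPM (median 2.17). The fed level enters the fold that set the call, so low fed means among the opened regions were partly built in. Some of the 12, with fed means under 1 CPM, passed the filter only through libraries of the other states. The lowest, 36.44 kb upstream, had 0.124 and 0.649 CPM fed, 1.47 and 1.99 fasted and 0.902 and 0.948 after leptin. Only its fasted libraries were thus over 1 CPM. At 14.65 kb upstream the 3 states gave 45.8 and 51.6 CPM fed, 47.2 and 42.6 fasted and 42.7 and 35.9 after leptin. At 30.84 kb upstream they gave 40.8 and 31.2, 35.2 and 33.3, and 29.4 and 29.6. Of the 12 regions that opened in fasting, 7 had no counterpart among the sorted-nuclei regions, as did 5 of the 11 Npy regions not called in fasting. At Agrp 1 of the 6 that opened overlapped a region lower in AgRP-positive nuclei, 1 a region not called there, and 4 none. Of the 24 Agrp regions not called in fasting, 12 overlapped none. The sorted nuclei, from fed mice only, had 67472 regions against 123721 in the 3 states. The share of all regions without a counterpart is not given, so these counts do not set the loci apart from other regions.

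Chromatin-bound proteins mapped by CUT&RUN, with 1 library each and so no replicate check, were unevenly spread over the loci. The list for IRF3, a transcription factor of the interferon response, came from fed males overexpressing IRF3-2D, a constitutively active form, in AgRP neurons, and so does not describe IRF3 at its normal level. It held 6 of its 30387 regions within 100 kb of Agrp and none near Npy. The strongest of the 6 lay 2.31 kb downstream of the Agrp start, at the start of Atp6v0d1 (total signal 11315, highest signal 74), and none covered the Agrp start. CTCF, an insulator protein, had 11 of 51182 entries near Agrp and 4 near Npy in AgRP nuclei. Of the 11, 3 lay in the region over the Agrp start, and 2 of these share the same coordinates. Their fold enrichments were 4.76, 3.19 and 2.81, with -log10 q of 3.82, 1.03 and 0.43. The 2 stronger Npy entries, 60.29 kb upstream (fold enrichment 5.90, -log10 q of 4.92) and 14.63 kb upstream (fold enrichment 5.51, -log10 q of 4.19), lay in 2 of the regions that were selective for AgRP-positive nuclei and not called in fasting. Among 4 cerebellum CTCF lists made from unequal numbers of nuclei, entries numbered 6 to 21 near Agrp and 0 to 3 near Npy.

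The surroundings of the genes differ as well. There are 6 other protein-coding genes that start within 100 kb of Agrp, of which 5 passed the expression filter, and none within 100 kb of Npy in this annotation. In fasting Atp6v0d1 RNA gave 0.20 (edgeR adjusted p = 0.62) and only Tppp3 of the 5 was called. Against the POMC line, the neighbour Hsd11b2, which encodes a glucocorticoid-inactivating enzyme and starts 49.54 kb downstream of the Agrp start, was higher in fed AgRP libraries by 8.19 (SE 0.35), more than Agrp itself. Its start region had 14.9 and 18.1 CPM in AgRP-negative and 17.6 and 20.5 in AgRP-positive nuclei (0.21, not called).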

How the data were processed

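Polysomal RNA was purified by TRAP from AgRP and POMC neurons and sequenced after Ribo-Zero depletion, and sorted nuclei were profiled by ATAC-seq and CUT&RUN. The authors aligned reads with HISAT2 and counted them with featureCounts on a GRCm38 annotation modified to minimise overlapping transcripts, or aligned them with Bowtie2 to mm10 and called peaks with MACS2 or SEACR. Versions are not given in the sources used here. The deposited RNA and ATAC tables hold raw counts per gene or merged peak. The deposited CTCF lists give fold enrichment and -log10 q from MACS2, and the deposited IRF3 list gives total and highest signal from SEACR. Of 46 samples, 33 had a column or file here, and whole-arcuate RNA was not analysed here.

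Counts were scaled by TMM and tested over all features with edgeR 4.0.16 (R 4.3.3) quasi-likelihood fits, after a filter of mean CPM over 1. A feature was called at a Benjamini-Hochberg false discovery rate under 0.05 with an absolute log2 fold change over 0.5. Standard errors were derived from the F statistic. All states of a line, or of an ATAC table, shared a fit. Ratios were tested by exact permutation (SciPy 1.17.1). Alternatives were DESeq2 1.42.0, other scalings, no filter, stricter calls, a 200-kb window, the replicate number as a block and leaving out each library, with 2 more chosen after seeing the data (without number 4 of the AgRP line, and without the 6 libraries with high Slc1a2). The fits were tested on simulated counts.

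Residuals of AgRP RNA libraries with the same number correlated in all 10 pairs (r from 0.536 to 0.814, against a median of -0.236 in 30 other pairs), so the number was taken to pair samples, and this comes from the data. The labels do not say that libraries come from separate animals beyond the pooling, so p-values measure the spread between these samples. The depth sets counting error only, and a strand setting of the counting was not stated.

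The named genes were both members, the 5 genes closest to each by correlation, the called genes of 6 pathway lists, and the 3 largest called regions per locus and contrast with those nearest the start, except 1 region that is not reported here. The members, lists and motifs were chosen with earlier results of these data known.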

Additional observations from a re-analysis of the deposited data

How the results depend on the processing

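Of 583 alternative values over 66 results, 496 were scored as the same. For fold changes and ratios this means the same direction and side of the threshold. For counts of regions it means only a count near the main one. With 2 ATAC libraries per group and 2 POMC libraries per state, the spread rests on few samples. Causes of the changes below were not tested.

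With the replicate block, fasted against fed rose to a call for Agrp (1.64, adjusted p = 8.7e-05) and Npy (1.57, adjusted p = 0.000115), as did leptin-treated against fed for Npy (1.35, adjusted p = 0.000296). DESeq2 called the same (1.79, 1.69 and 1.58). Blocking numbers 1 and 2 of both lines, which nothing ties across lines and which leaves 1 fed AgRP library, took fed Npy to 4.88 (adjusted p = 0.0585), and in ATAC the block for leptin against fasted called 1 Npy region higher and 1 lower. In POMC RNA and ATAC, 2 per group make residuals mirror each other. In POMC RNA the block called neither member, but it called 3 of 13412 genes in fasted against fed and 8 in leptin against fasted. The other ATAC counts with the block were scored only as near the main ones. The leptin-treated against fed call of Agrp was lost with library size alone (1.63), no filter (1.68), RLE size factors (1.68) and without number 4 in every state (1.68). POMC Agrp after leptin turned to -0.0063 with library size alone and -0.0014 with no filter. Without the 6 libraries with high Slc1a2 the differences of effect turned to -0.47 and -0.61 (fasting) and 0.079 and 0.092 (leptin).

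Within 200 kb, Agrp counts were 2 higher in sorted nuclei, 3 lower in fasting and 5 lower for leptin-treated against fed. Npy counts were 19 higher and 1 lower in fasting and 16 higher and 2 lower for leptin-treated against fed. The calls are those of the main fit, where 18.1% of all regions were higher and 8.88% lower in fasting. For leptin-treated against fed the shares were 23.3% and 13.4%, and in sorted nuclei 23.9% were higher. The number of regions tested within 200 kb is not given, so these counts are no shares. At a false discovery rate of 0.01 and a log2 fold change over 1, Agrp had 3 higher and 0 lower of 31 in fasting. It had 0 lower of 31 for leptin-treated against fed and 1 lower of 15 in sorted nuclei. The share of all regions at this setting is not given. Library size alone left 1 lower Agrp region in sorted nuclei, and no filter gave 2 lower for leptin-treated against fed. With 1 base of overlap, 7 of 31 Agrp regions of the 3 states had CTCF of AgRP nuclei, 11 CTCF of cerebellum and 3 IRF3. Of 15 sorted-nuclei regions 7, 10 and 3 did, and 1 Npy region had CTCF of cerebellum in each ATAC table. Asking that CUT&RUN peaks cover at least 50% of an ATAC region left, in each ATAC table, 0 Agrp regions with CTCF of AgRP nuclei. It left 6 with CTCF of cerebellum, 1 with IRF3 and 0 Npy regions with CTCF of cerebellum.

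Leaving out 1 library at a time gave these ranges for Agrp and Npy. Fasted against fed ran from 1.54 to 2.06 and 1.42 to 1.96, leptin-treated against fed from 1.29 to 1.96 and 1.20 to 1.89, and leptin against fasted from -0.51 to 0.15 and -0.51 to 0.18. POMC leptin against fasted ran from -0.50 to 0.83 and -0.43 to 0.96. The difference of the fasting effects ran from -0.034 to 1.31 and -0.15 to 1.25, and that of the leptin effects from -0.95 to 0.40 and -1.08 to 0.32. The log2 ratio of Agrp to Npy ran from -0.071 to 0.29 for fasted against fed, -0.10 to 0.13 for leptin against fasted and -0.048 to 0.31 for leptin-treated against fed. At the starts, leptin against fasted ran from -0.24 to 0.028 (Agrp) and -0.50 to 0.011 (Npy), and leptin-treated against fed from -0.16 to 0.35 at Npy. Counts ran from 3 to 4 higher and 0 to 1 lower at Agrp and 7 to 9 higher at Npy in fasting, from 3 to 5 higher and 0 to 2 lower at Agrp and 0 to 1 lower at Npy for leptin-treated against fed, and from 2 to 4 lower at Agrp in sorted nuclei.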
